A study of Mus musculus with 6 samples.

Results

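Mitochondria carry their own ribosome, and nearly all of their proteins are made in the cytosol and imported, and the transcripts of these 2 machines are described here in mouse midbrain. The members are the genes of the deposited table whose symbol starts with Mrpl, Mrps, Timm or Tomm. These are 98 of the 5538 genes in the table: 77 with a ribosomal symbol (48 Mrpl and 29 Mrps) and 21 with an import symbol (12 Timm and 9 Tomm), called ribosomal and import members here. By known role they are 75 and 20, since Mrps36 is not a ribosomal protein, Tomm34 is a cytosolic co-chaperone and Mrpl23-ps1 is a pseudogene. In the GENCODE M21 annotation of mm10, 104 protein-coding genes have such a symbol, of which 97 are in the table. The 98th member is that pseudogene, and the other 7 coding genes were not analysed here.

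Mitochondrial ribosomal proteins are encoded in the nucleus, made in the cytosol and imported, and the finished ribosome translates the few messages of the mitochondrial genome, which encode core subunits of the respiratory chain. Mrpl genes are named for the large subunit and Mrps genes for the small one. Precursors enter through the TOM complex of the outer membrane, where Tomm20, Tomm22 and Tomm70a are receptors and Tomm40 forms the pore. The TIM23 complex then carries proteins with a presequence across the inner membrane, the TIM22 complex inserts carrier proteins into it, and the small Tim proteins escort hydrophobic precursors between the membranes. Neurons depend on this supply along their whole length, because most of their ATP comes from oxidative phosphorylation.

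RNA was sequenced from the perioculomotor (pIII) region of C57BL/6 mice, the midbrain around the oculomotor nucleus. All animals carried CreER, a drug-inducible recombinase, under the Fos promoter together with a Cre-inducible eGFP-L10a reporter, and all went through 6 hr of sleep deprivation and 3 hr of recovery sleep, with 4-OHT given just before one or the other phase. The 3 IP libraries hold RNA recovered with eGFP antibodies, so with ribosomes of the cells where Cre acted, and the 3 Input libraries are read here as the tissue before that step. The series text names neurons labelled in recovery sleep, the labels of single libraries do not repeat this, and each library pools 4 to 5 mice.

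Values are TPM, a per-length abundance with a fixed total per library, so read depth is unknown. The median gene stood between 27.7 and 56.5 TPM across IP and between 31.1 and 67.2 TPM in Input, lowest in IP 1 and Input 3. For that reason a level is given here as log2(TPM + 1) minus the median gene of the same library, called the relative level, and a difference is the mean relative level in IP minus that in Input. The median gene differed by -0.23 log2 units before this centring. Of 6 genes fixed as markers of cholinergic and oculomotor neurons, 5 had values, summing to between 412 and 643 TPM across IP and between 186 and 326 TPM in Input. Of 9 oligodendrocyte markers, 6 had values, and their sum was 365 TPM in IP 1 and 536 in Input 3 against 2920 to 4877 in the other 4 libraries. The 5 measured of 10 astrocyte markers summed to between 261 and 480 TPM across IP and to 778, 851 and 230 TPM in Inputs 1, 2 and 3. For microglia 2 of 9 markers had values (21 to 39 TPM in IP, 33 to 86 in Input), and for endothelial cells 1 of 6 (50 to 278 TPM in IP, 22 to 35 in Input). The part of these cell types in the results below was not tested, and in such tissue RNA fewer cells of a type and less RNA per cell cannot be told apart.

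Transcripts of both machines were more abundant than the typical listed gene in every library. Of the 98 members, 82, 75 and 79 lay above the median gene in IP 1, IP 2 and IP 3, and 79, 77 and 73 in Inputs 1, 2 and 3. The median relative level of the ribosomal members was 1.61, 0.55 and 0.93 in the IP libraries and 0.95, 0.81 and 0.67 in the Input libraries. For the import members it was 1.65, 0.78 and 1.19 in IP and 1.05, 1.01 and 1.02 in Input. IP 1 was highest and IP 2 lowest for both machines, and the Input values lay between them.

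**Figure D1:**
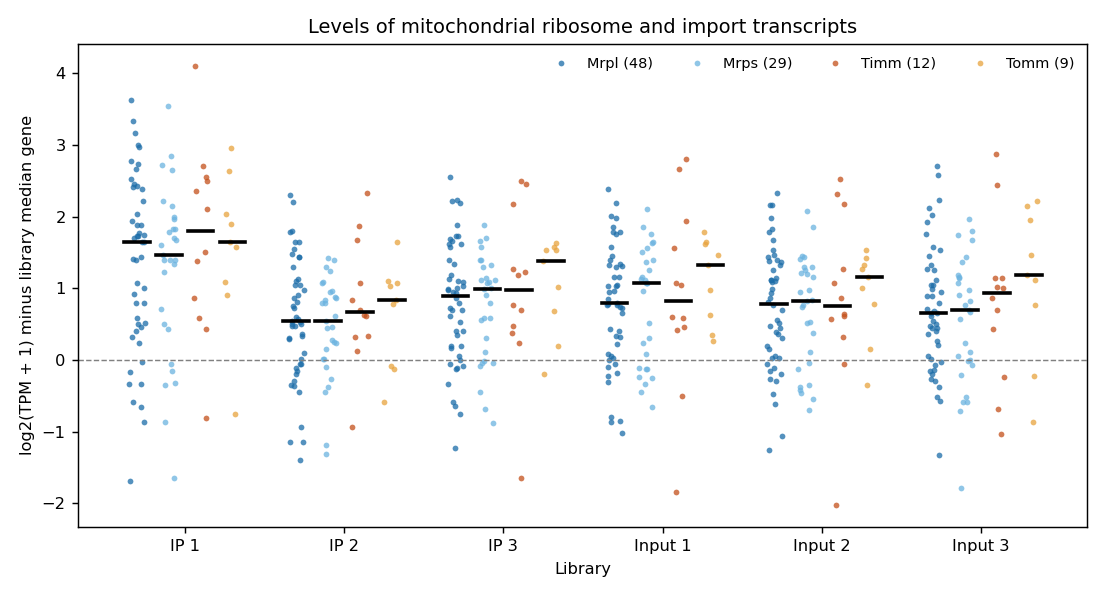
Relative level, log2(TPM + 1) minus the library's median gene (vertical axis), of each member in the 3 IP and 3 Input libraries, with 1 point per gene, a colour per gene family and a black bar at the family's median. All family medians lie above the dashed line of the median gene, and IP 1 has the highest median of each family, such as 1.80 for Timm and 1.64 for Mrpl.

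The most abundant member transcripts came from both machines. Timm8b, a small Tim chaperone subunit, averaged 321 ± 155 TPM over the IP libraries and 322 ± 141 over the Input libraries (mean ± SD, n = 3 in both), and Timm17a, a channel subunit of TIM23, had 251 ± 57.8 and 345 ± 98.1 TPM. Among ribosomal members Mrpl42 had 307 ± 45.6 and 278 ± 111 TPM and Mrpl28 had 258 ± 23.3 and 243 ± 52.2 TPM. At the low end stood Timm8a1, a paralog of Timm8b, with 15.4, 29.2 and 15.5 TPM across IP and 17.3, 15.8 and 14.7 in Input, and Mrpl11, a protein of the factor-binding stalk base, with 18.9 ± 3.62 and 24.9 ± 11.4 TPM. In IP the order of the 4 abundant genes was Timm8b, Mrpl42, Mrpl28, Timm17a, and in Input Timm17a, Timm8b, Mrpl42, Mrpl28, but the means ± SD of neighbours in either order overlapped.

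No member differed between IP and Input by the test. Limma, with Benjamini-Hochberg adjustment over all 5538 genes, called 0 of 98 members and 0 genes of the table (0% of genes higher and 0% lower). An unadjusted p below 0.05 was found for 1 member, Timm44, and for 411 genes (7.42%). Without Input 3 it called 16 genes higher (0.289%) and 1 lower (0.0181%), 0.307% in all, again with 0 members. Log2 differences of the members ran from -0.88 (Mrpl50) to 0.93 (Timm10), and the smallest adjusted p was 0.649. The difference was above 0 in 70 of 98 members, against 51.8% of all genes, with a median of 0.19 against 0.02. That excess rested on 1 library: without IP 1, 38 of 98 members were above 0, against 46.5% of all genes, and the median was -0.06. Before centring, the median was -0.06 against -0.23 for all genes.

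Ribosome and import were not parted beyond the spread between libraries. The median difference was 0.19 for the 77 ribosomal members, with 57 above 0, and 0.18 for the 21 import members, with 13 above 0. Taken within each library, the ribosomal median minus the import median was -0.03, -0.22 and -0.27 in IP 1, IP 2 and IP 3, and -0.10, -0.20 and -0.35 in Inputs 1, 2 and 3. The import median was thus the higher of the 2 in all 6 libraries, and the gap was -0.17 ± 0.12 in IP and -0.22 ± 0.12 in Input, a change of 0.04 that is smaller than the spread within either group. Without IP 1 the 2 medians of the difference were -0.05 and -0.16, both opposite in sign to those over all libraries. Before centring they were each -0.06.

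**Figure D2:**
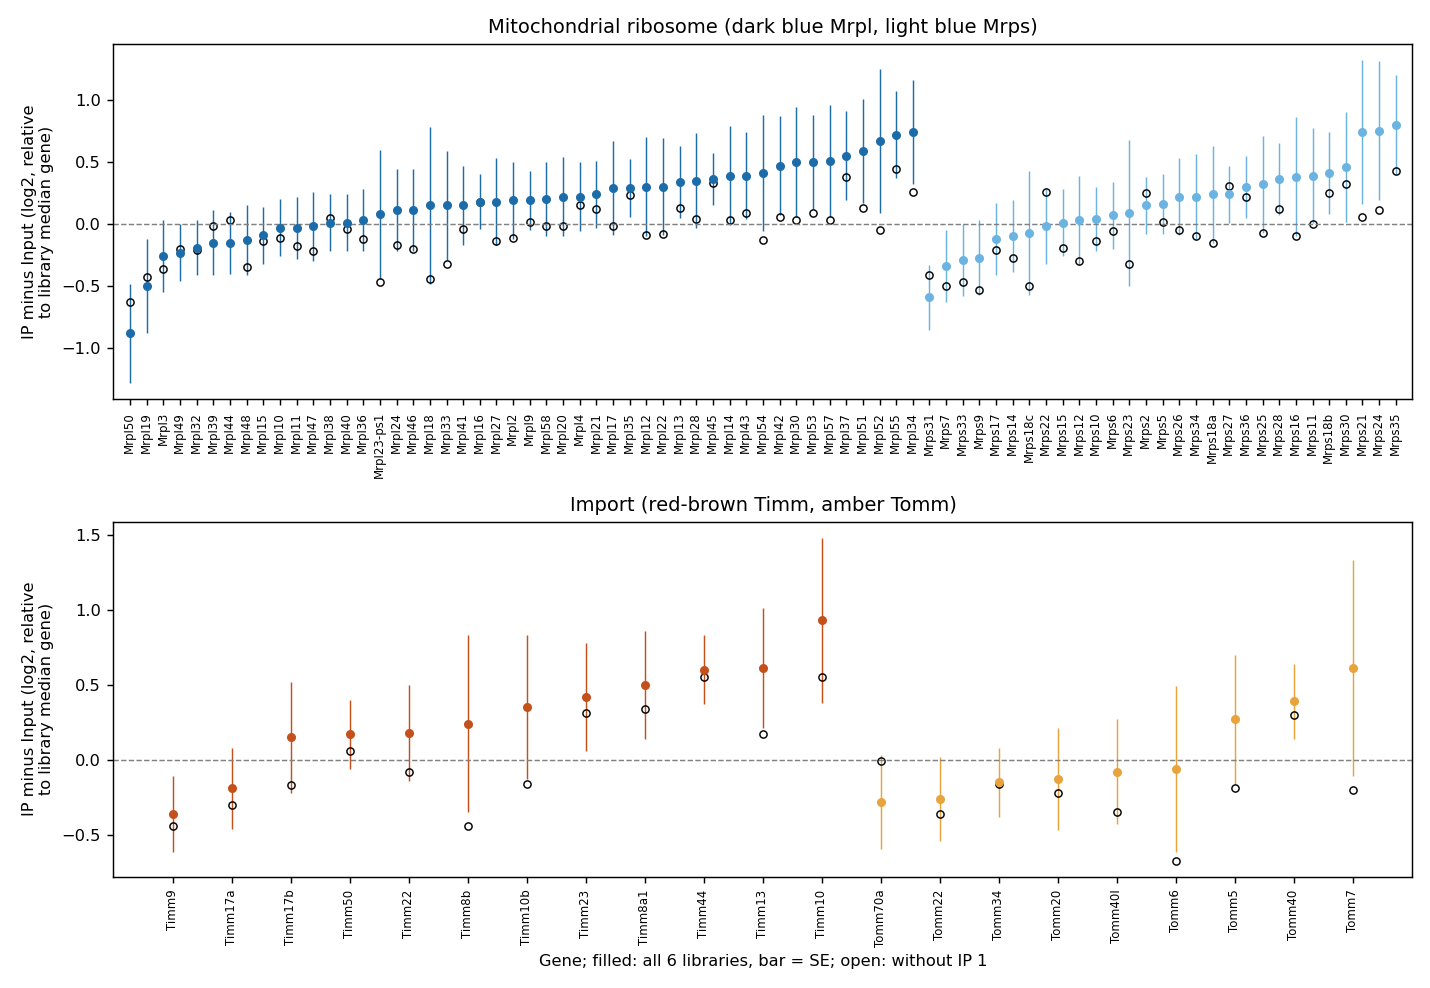
Difference between IP and Input in log2 units, relative to the library median gene (vertical axis), for each of 77 ribosomal members (upper panel) and 21 import members (lower panel), where filled points stand for all 6 libraries, bars are the SE and open circles are the value without IP 1. Most filled points lie above 0 and most open circles near or below it, as the counts of 70 and 38 of 98 members show.

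Within the ribosome, the median difference of each subunit was above 0 over all libraries and below 0 without IP 1. By role the large subunit has 49 members here, because Mrps18a and Mrps30 sit in it in spite of their names, and the small subunit has 26. The large subunit had a median difference of 0.20, with 37 members above 0, and the small subunit 0.12, with 18 above 0. Without IP 1 the medians were -0.02 and -0.08. Proteins with a counterpart in bacterial ribosomes (28 large, 16 small) had medians of 0.19 and 0.05, and those particular to mitochondria (21 large, 10 small) had 0.24 and 0.22. None of these medians was as far from 0 as 1 pooled SD of the ribosome's library medians (0.39). That SD holds shifts between libraries that both subunits share, so it cannot show whether the subunits differ. The median relative level of the large subunit was 1.64, 0.55 and 0.86 in IP and 0.78, 0.76 and 0.65 in Input. For the small subunit it was 1.54, 0.51 and 0.95 in IP and 1.07, 0.83 and 0.69 in Input. A difference between the subunits was not tested.

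In 6 of the 98 members (6.12%) all 3 IP libraries had a higher relative level than all 3 Input libraries, against 6.93% of all genes, and in 2 (2.04%) all IP libraries had a lower one, against 9.71%. The first share is near that of the whole table. The 6 were Mrpl34, Mrpl55, Mrpl35, Mrpl45, Timm44 and Tomm40, and the 2 were Mrpl32 and Mrps31. Before centring, 0 members had all IP values above, against 1.7% of all genes, and 3 had all below, against 6.21%.

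Timm44 (chromosome 8, 4259731 to 4275913), which tethers the matrix Hsp70 motor to the TIM23 channel, had relative levels of 0.43, 0.32 and 0.24 in IP 1, IP 2 and IP 3 and of -0.50, -0.06 and -0.24 in Inputs 1, 2 and 3. Every IP value was above the median gene and every Input value below it. The difference was 0.60 (SE 0.23; limma adjusted p = 0.649), and it was 0.55 without IP 1. In TPM the groups overlapped, with 37.7, 70.8 and 60.3 in IP and 45.1, 64.6 and 26.1 in Input. Tomm40 (chromosome 7, 19701313 to 19715438), the pore of the outer membrane, had relative levels of 1.89, 1.65 and 1.58 in IP and 1.32, 1.54 and 1.11 in Input. The gap between the lowest IP and the highest Input value was small beside the spread within Input, and the difference was 0.39 (SE 0.25; limma adjusted p = 0.716).

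Mrpl34 (chromosome 8, 71464959 to 71465747), the counterpart of bacterial L34 in the large subunit, had relative levels of 2.43, 0.91 and 1.10 in IP and 0.77, 0.81 and 0.65 in Input. IP 1 stood far above the other 5 libraries, and the difference of 0.74 (SE 0.42; limma adjusted p = 0.692) was 0.26 without it. Mrpl55, the counterpart of bacterial L31, had 2.38, 1.48 and 1.62 in IP and 1.34, 1.32 and 0.65 in Input, with a difference of 0.72 (SE 0.35) that was 0.44 without IP 1. Mrpl45 (chromosome 11, 97315716 to 97329920), which lies at the exit of the peptide tunnel on the inner membrane, had 0.23, 0.10 and 0.16 in IP and -0.31, -0.15 and -0.14 in Input. Its libraries agreed closely within each group, and its difference of 0.36 (SE 0.21) was 0.33 without IP 1. Mrpl35 differed by 0.29 (SE 0.23).

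In the other direction, Mrps31, a protein of the small subunit, had relative levels of -1.65, -1.31 and -0.88 in IP and -0.66, -0.70 and -0.71 in Input. Its TPM were 8.14, 22.2 and 27.2 in IP and 40.2, 41.1 and 18.6 in Input, so it was near the lowest value of the table (7) in IP 1. The difference was -0.59 (SE 0.26; limma adjusted p = 0.649) and -0.41 without IP 1. Mrpl32 (chromosome 13, 14608184 to 14613165), a large-subunit protein whose precursor is cut by the m-AAA protease on the way into the ribosome, had -0.33, -0.45 and -0.33 in IP and 0.03, -0.30 and -0.27 in Input. The groups were parted by less than the spread within Input, with a difference of -0.19 (SE 0.22).

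**Figure D3:**
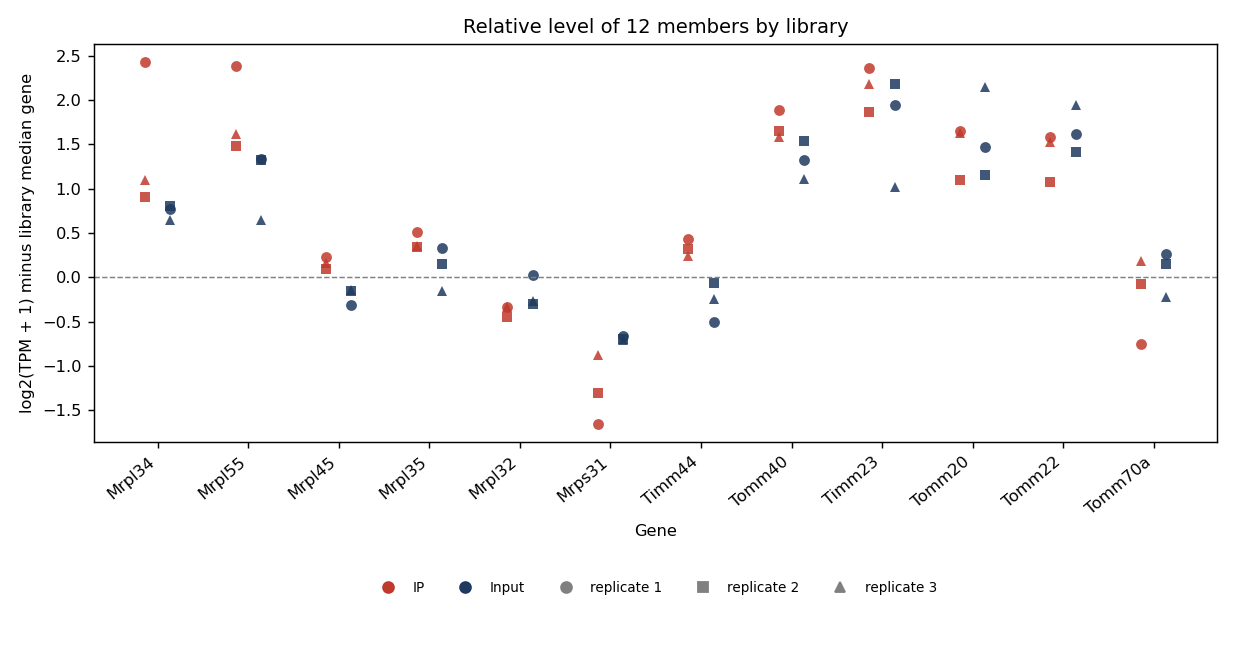
Relative level, log2(TPM + 1) minus the library's median gene (vertical axis), of 12 members. Red marks IP and blue Input, and the replicate is shown by shape (1 circle, 2 square, 3 triangle). The IP points of Timm44 (0.24 to 0.43) lie above all its Input points, and those of Mrps31 (-1.65 to -0.88) below, while the groups overlap for Timm23, Tomm20, Tomm22 and Tomm70a.

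Promoters of the members were searched in RefSeq sequences (GRCm38.p6, the build also called mm10), which run from 250 bases before to 50 after a gene's start. They held 94 promoters of 86 members. The stretches shown lie upstream of the RefSeq starts of 4 members, with matches in capitals. The GENCODE gene starts farther out for 2 of them, so the stretch of Mrpl32 and the second match of Tomm70a lie inside the GENCODE gene. They were picked to show the ETS core CCGGAAG (bound by GABP, also called NRF-2, among others) and the NRF1 core (GCGCA, any base, GCGC), since both factors are known for nuclear genes of mitochondrial proteins. Mrpl34 and Mrpl45 are among the 6 members with all IP libraries above Input, Mrpl32 among the 2 with all below, and Tomm70a overlapped. They lie at chr8:71464776-71464925 (plus strand), chr11:97315566-97315715 (plus), chr13:14613105-14613134 (minus) and chr16:57121564-57121713 (plus), in that order.
Mrpl34: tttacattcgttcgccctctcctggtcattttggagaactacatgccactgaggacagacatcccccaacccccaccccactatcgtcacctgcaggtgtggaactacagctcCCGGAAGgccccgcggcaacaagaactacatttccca
Mrpl45: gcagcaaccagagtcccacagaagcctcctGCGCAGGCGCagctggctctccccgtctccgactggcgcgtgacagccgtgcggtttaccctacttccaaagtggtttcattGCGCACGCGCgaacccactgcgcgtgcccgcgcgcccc
Mrpl32: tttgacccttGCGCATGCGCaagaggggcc
Tomm70a: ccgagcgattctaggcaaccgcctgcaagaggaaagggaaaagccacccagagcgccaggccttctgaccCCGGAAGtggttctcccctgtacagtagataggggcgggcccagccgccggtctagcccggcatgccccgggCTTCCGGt
Mrpl45, with all IP values above Input, and Mrpl32, with all below, were picked because they hold the NRF1 core. Nothing on a link between the core and the difference can be read from them.

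The ETS core, on either strand, was in 34 of the 94 member promoters (36.2%), against 20.4% of the promoters of all genes in the table and 8.86% of all 32851 RefSeq promoters. The NRF1 core was in 15 (16.0%), against 12% and 4.6%, and the YY1 core AAGATGG in 16 (17.0%), against 8.44% and 6.34%. The CCAAT box was found at like rates everywhere (38.3%, 38.1% and 37.4%), and the GC box GGGCGG in 51.1%, 63.6% and 35.7%. A total of 17 spellings were searched, several of them variants of the same motif, and a match describes the letters only. Members with the ETS core had a median difference of 0.24 and those without it 0.15, and without IP 1 the values were -0.05 and -0.06.

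Among the subunits of the outer membrane complex, 5 of 8 had a difference below 0, with a median of -0.07. That median was -0.21 without IP 1 and 0.16 without Input 3. The receptors all had values below 0. Tomm20, which binds presequences, stood at 88.8, 123 and 160 TPM across the IP libraries and at 180, 151 and 141 TPM across the Input libraries, and its difference was -0.13 (SE 0.34). Tomm22, the central receptor, had 85, 121 and 149 TPM across IP and 199, 181 and 123 in Input, with a difference of -0.26 (SE 0.28). Tomm70a, which binds chaperone-bound precursors, had 16.0, 53.3 and 58.1 TPM across IP and 77.2, 74.6 and 26.4 in Input, with a difference of -0.28 (SE 0.31). IP 1 held the lowest TPM of all 3 receptors among IP libraries. In relative level, though, it was the highest IP library for Tomm20 (1.65) and Tomm22 (1.58) and the lowest for Tomm70a (-0.75). IP and Input overlapped in relative level for each receptor. Without IP 1 the difference was -0.22 for Tomm20, -0.36 for Tomm22 and -0.01 for Tomm70a, and for Tomm20 it was 0.15 without Input 3. The small subunits Tomm5 and Tomm6, which stabilise the pore complex, had differences of 0.27 and -0.06.

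Of the inner membrane channels, TIM23 subunits had a median difference of 0.17 over 5 members. Timm23, the channel-forming subunit, had 146, 209 and 234 TPM across IP and 249, 307 and 63.9 in Input, with the lowest value in Input 3, and its difference of 0.42 (SE 0.36) was 0.08 without that library. Timm17a and its X-linked paralog Timm17b had differences of -0.19 and 0.15, and Timm50, the receptor at the channel's entrance, had 0.17. Timm22, the channel for carrier proteins, had 85.4 ± 4.23 TPM across IP and 90.3 ± 18.3 in Input, with a difference of 0.18 (SE 0.32). IP and Input overlapped in relative level for each of these 5 genes.

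The small Tim proteins had the highest median difference of the import groups, 0.43 over 6 members, and it was 0.00 without IP 1. Timm9 and Timm10, which form one chaperone ring together, had differences of opposite sign over all 6 libraries, though IP and Input overlapped for both. Timm10 had 122, 92.5 and 121 TPM across IP and 135, 124 and 19.0 in Input, a difference of 0.93 (SE 0.55) that was 0.38 without Input 3. Timm9 had 42.2, 71.1 and 66.8 TPM across IP and 97.1, 105 and 69.8 in Input, a difference of -0.36 (SE 0.25). Without both IP 1 and Input 3 the difference was 0.01 for Timm10 and -0.26 for Timm9. Timm13, the partner of Timm8 proteins, had a difference of 0.61 (SE 0.40), which was 0.17 without IP 1, and Timm8b had 0.24 (SE 0.59), which was -0.44 without it.

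For ribosomal members named here for their roles, IP and Input overlapped. Mrpl12, the stalk protein, had 195, 180 and 154 TPM across IP and 178, 196 and 138 in Input, with a difference of 0.30 (SE 0.40) that was -0.09 without IP 1. Mrps12, a protein of the decoding centre, had 174 ± 19.2 TPM across IP and 222 ± 105 in Input, with a difference of 0.03 (SE 0.36). Mrps7, which binds the small-subunit rRNA, had a difference of -0.34 (SE 0.29), Mrpl58, a peptidyl-tRNA hydrolase built into the large subunit, 0.20 (SE 0.30), and Mrps30, with 8.29 TPM in Input 3 against 59.6 and 50 in Inputs 1 and 2, 0.46 (SE 0.44). Mrps36, now known as a subunit of the alpha-ketoglutarate dehydrogenase complex, had 0.30 (SE 0.25). The abundant small-subunit member Mrps21 had 332, 139 and 167 TPM across IP and 237, 167 and 69.5 in Input, and its difference of 0.74 (SE 0.58) was 0.06 without IP 1.

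IP 1 differed from the other IP libraries most in short transcripts. Each library was set against the mean of the other 2 of its group, gene by gene, and this deviation was above 0 in 85 of 98 members in IP 1, in 8 in IP 2 and in 26 in IP 3. For the shortest 32 of the 96 coding members with an annotated length (418 to 1056 nt) the median deviation of IP 1 was 1.14, and for the middle 32 (1068 to 1849 nt) and the longest 32 (1962 to 7300 nt) it was 0.43 and 0.44. Across the 96 members the deviation of IP 1 and length had a Spearman rho of -0.48, and across 5338 coding genes of the table -0.45. Over the members rho was 0.43 and 0.41 for IP 2 and IP 3, whose deviations contain IP 1 with the opposite sign, and -0.33, -0.05 and 0.26 for the Inputs. These values describe genes that share a library and are no test, and lengths are of the GENCODE transcript with the longest coding part, not the isoform present.

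**Figure D4:**
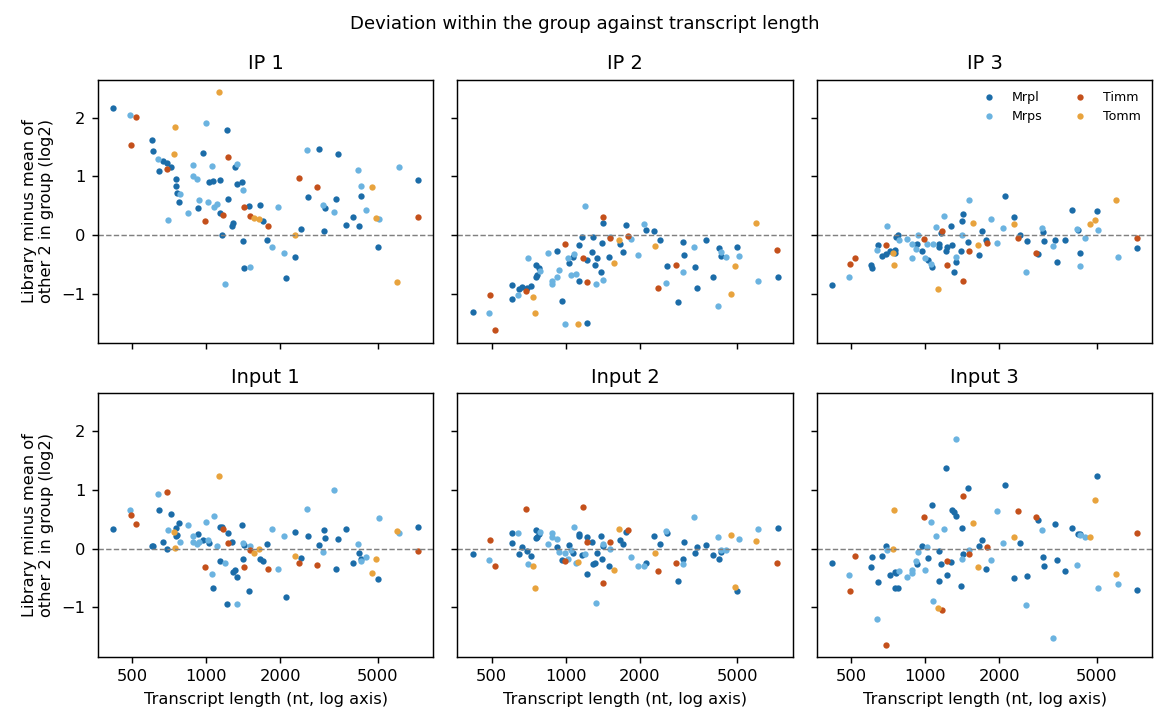
Deviation of each library from the mean of the other 2 libraries of its group, in log2 units (vertical axis), against transcript length in nucleotides (log axis), for 96 coding members coloured by gene family. In IP 1 the shortest transcripts lie highest, with a median deviation of 1.14 in the shortest 32 against 0.44 in the longest 32. The shortest 32 had -0.85 and -0.27 in IP 2 and IP 3, and 0.23, 0.02 and -0.30 in the Inputs.

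Some single genes followed this division and others did not. Mrpl52, whose transcript is the shortest of the coding members at 418 nt, stood at 131 TPM in IP 1 but at 52.2 and 58.2 TPM in IP 2 and IP 3. Timm8b (518 nt) reached 489 TPM in IP 1 against 183 and 291 in IP 2 and IP 3, and Tomm70a (5964 nt) had 16.0 against 53.3 and 58.1. In relative level the IP 1 deviations of these genes were 2.17, 2.01 and -0.80. Other members went the other way. The longest, Mrpl17 (7300 nt), deviated by 0.94 and Mrps25 (6073 nt) by 1.15, while Mrps22 (1197 nt) had -0.83. Mrpl17, Mrpl50, Mrpl52, Mrps22, Mrps25, Timm8a1 and the use of length were chosen after the values were seen. The IP minus Input difference had medians of 0.29, 0.18 and -0.02 in the short, middle and long sets, and of -0.07, 0.05 and -0.12 without IP 1. Its rho with length was -0.37 over the members and -0.01 over all genes. Within ribosomal members alone, cut into their own 3 sets, the medians were 0.30, 0.15 and 0.15, and within import members 0.27, 0.42 and -0.13. The cause of these differences was not tested.

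In lists of genes that work beside the members, 0 genes were called over all libraries. Of 7 ribosomal proteins with other symbols, 5 had values, with a median difference of 0.00. Aurkaip1 had 0.19 (SE 0.37) and Chchd1 -0.14 (SE 0.40), and without IP 1 they had -0.17 and -0.57. Of 24 import components with other symbols, 21 had values, with a median of 0.05 and 12 above 0. Pam16, a regulator of the import motor, had 63.4, 37.6 and 61.3 TPM across IP and 53.7, 53.5 and 9.46 in Input, with a difference of 1.02 (SE 0.53), and Romo1, a small inner-membrane protein, had 0.63 (SE 0.66). Without IP 1 the difference of Pam16 was 0.57 and that of Romo1 -0.09, and without Input 3 they were 0.57 and 0.26. With both of these libraries left out they were 0.13 and -0.46. Of 40 factors of mitochondrial gene expression, 24 had values, with a median of 0.27, which was 0.22 without IP 1, and 19 above 0. Noa1, a GTPase of mitochondrial ribosome assembly, stood at 115 TPM in IP 1 against 16.7 to 28.8 TPM elsewhere, and its difference was -0.05 without IP 1. Slirp, an RNA-binding partner of Lrpprc, had a difference of 0.69 (SE 0.53). It was 0.31 without IP 1, 0.26 without Input 3 and -0.12 without both. Relative to the library median gene these factors were the less abundant machinery, with list medians from -0.96 to -0.42, below the members in every library.

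Genes tied to these machines by function, and the cytosolic ribosome, also stood highest in IP 1 where they are nuclear-encoded. The 77 nuclear-encoded subunits of oxidative phosphorylation, which are imported, had a median difference of 0.43, with 68 above 0, and 0.04 without IP 1. Without both IP 1 and Input 3 that median was -0.14, with 21 of the 77 above 0. Uqcr11 and Atp5g1 had differences of 1.23 (SE 0.77) and 1.24 (SE 0.58), which were 0.45 and 0.80 without IP 1 and 0.71 and 0.72 without Input 3. With both libraries left out they were -0.07 and 0.28. The 79 cytosolic ribosomal proteins had a median of 0.94, with 77 above 0, and 0.15 without IP 1. Among them Rps20 had 1.92 (SE 0.82) and Rpl10a, whose protein is the tagged one in these mice, 3.03 (SE 0.47), which were 0.93 and 2.56 without IP 1. In IP 1 the median relative level of cytosolic ribosomal proteins was 4.43, against 1.46 to 2.27 in the other 5 libraries, and that of the mitochondrial ribosome was 1.61 against 0.55 to 0.95. Of mitochondrially encoded genes, which the mitochondrial ribosome serves or contains, 4 had values. Among these mt-Co1 had 85.9, 491 and 301 TPM across IP and 2124, 2388 and 36.4 in Input, and mt-Rnr2, the large ribosomal RNA, had 47.7, 93.3 and 65.5 in IP and 901, 715 and 12.2 in Input. Their levels were lowest in Input 3 and highest in Inputs 1 and 2, while the median TPM of the ribosomal members ran from 50 in Input 3 to 125 in Input 1.

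**Figure D5:**
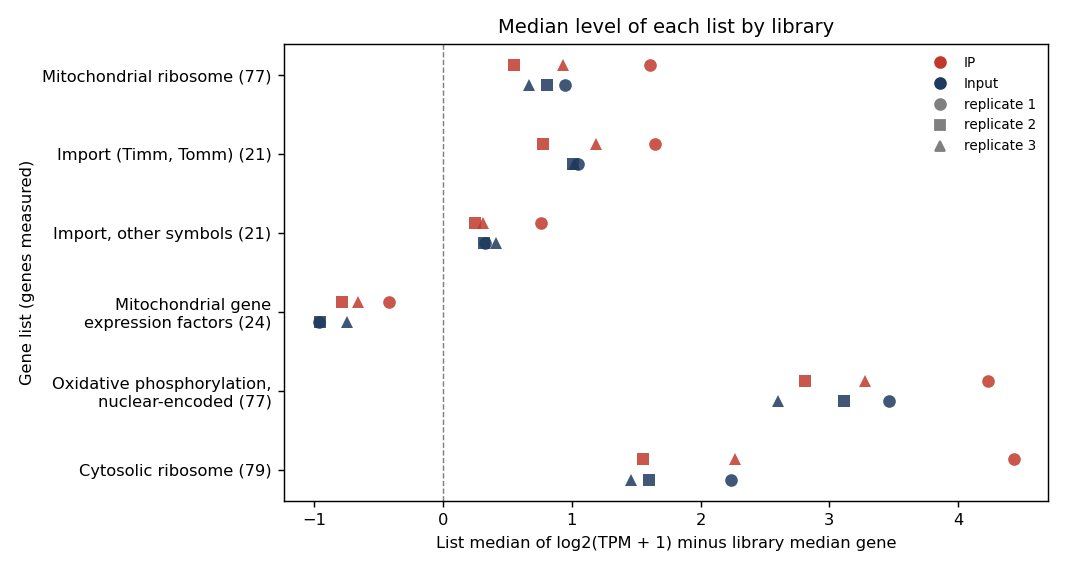
Median of log2(TPM + 1) minus the library's median gene (horizontal axis) for 6 gene lists. Red marks IP and blue Input, and the replicate is shown by shape (1 circle, 2 square, 3 triangle). IP 1 is the highest library in every list, and the ribosome (0.55 to 1.61) and import (0.78 to 1.65) lists span less than the cytosolic ribosome (1.46 to 4.43).

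Without both IP 1 and Input 3, the libraries that stood apart, 187 genes of the table were called higher (3.38%) and 160 lower (2.89%) by limma, 6.27% in all, and 0 of 98 members were called. The 4 mitochondrially encoded genes were all called lower, and of 79 cytosolic ribosomal proteins 2 were called higher and 1 lower. The members nearest the threshold were Mrps18c, a small-subunit protein, with a difference of -0.90 (adjusted p = 0.0627), and Mrpl37, a large-subunit protein, with 0.73 (adjusted p = 0.0635). Both were named after their values were seen. Mrps18c had 68.8 and 88.7 TPM in IP 2 and IP 3 and 204 and 157 in Inputs 1 and 2, and Mrpl37 had 103 and 105 against 67.9 and 86.4. The libraries left out, IP 1 and Input 3, had 101 and 36.6 TPM of Mrps18c and 76.4 and 75.1 of Mrpl37. Over all 6 libraries the groups overlapped for both genes. The difference there was -0.07 for Mrps18c (limma adjusted p = 0.975) and 0.55 for Mrpl37 (limma adjusted p = 0.719). In this comparison of 2 against 2 libraries the ribosomal median was -0.11, the import median -0.09 and the median of all genes -0.04. Timm44 kept a difference of 0.56 (adjusted p = 0.161).

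Library by library, the members' levels were most alike between IP 3 and Input 2, with a Pearson r of 0.96 over the 98 genes, as between Inputs 1 and 2. IP 1 and Input 3 had 0.69, and Inputs 1 and 3 had 0.74. Over all genes r was 0.9 between IP 3 and Input 2 and 0.97 between Inputs 1 and 2. It was 0.79 between IP 1 and Input 3 and 0.72 between Inputs 1 and 3. This is a description across genes, which are no replicates. Exons of 43 of the 98 members overlap those of another annotated gene, 13 of them a gene in the table. Mrpl46 and Mrps11 overlap each other on opposite strands, and Mrps7 and Tomm70a, described above, overlap genes in the table. The kit named in the labels is not stated to mark strand, so how reads were split there is uncertain.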

How the data were processed

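RNA-seq values of 3 IP and 3 Input libraries were used. The deposited table holds TPM, per the file headers, computed by the authors. RSEM, DESeq and mm10 are listed, without versions or roles, in the submitters' processing notes, and the aligner used was not given in the sources used here. Every deposited TPM value is at least 7.00, so the table holds no gene that was lower in any library, and depth and counting error are unknown. TPM were transformed to log2(TPM + 1), the median gene of a library was subtracted from all its values, and IP was compared with Input by limma 3.58.1 in R 4.3.3 (lmFit, eBayes with trend, group as the only term, Benjamini-Hochberg adjustment over 5538 genes, threshold 0.05). The script was tested on simulated data. Fold changes on this scale understate those of low genes. With 3 pools per group an exact permutation test cannot go below p = 0.1, and p-values measure the spread between pools. Lists are described by counts and medians, with no test. The members, lists and the choice of libraries to leave out were made with earlier results of these data known.

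Genes were named by rule: any called member, up to 4 per family and direction with non-overlapping groups, the 2 most abundant per family, 22 fixed members (21 with a row) and the 2 largest differences of each related list. It gave 44 genes, 32 of them members. Alternatives were a pseudocount of 0.1, no centring, quantile normalization, median-ratio centring, a mean TPM of at least 20, leaving out gene models and pseudogenes, the replicate number as a block, each library left out in turn, and IP 1 and Input 3 left out together. Grouping members by role was added after the data were seen. All 98 gene IDs matched GENCODE M21, which gave coordinates and lengths.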

Additional observations from a re-analysis of the deposited data

How the results depend on the processing

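None of the 14 alternative settings called a member, and the list medians kept within 1 SD of the library medians except as given here. The import median was -0.16 without IP 1, and the change of ribosome minus import was -0.09 without both IP 1 and Input 3. Leaving out 1 library at a time gave 0 to 16 genes higher and 0 to 1 lower over the whole table (16 and 1 without Input 3), medians of -0.05 to 0.34 for the ribosome and -0.16 to 0.40 for import, -0.03 to 0.10 for ribosome minus import, and 7 to 19 members with all IP values above and 3 to 8 with all below. Without both IP 1 and Input 3 there were 187 genes higher and 160 lower, and 16 members above and 28 below, where only 2 libraries per group must part. No centring left 0 members above, against 1.7% of all genes. Quantile normalization gave 10 above and 5 below, and without pseudogenes and gene models 1 was below. Apart from no centring, the share of all genes was not counted in these settings. Their counts of members above or below are therefore no result about the members in particular. The sign changed for Mrpl58 (-0.05), Mrps12 (-0.21), Timm17b (-0.09), Timm22 (-0.06), Timm50 (-0.08) and Timm8b (-0.01) with no centring, for Mrps12 (-0.07) and Timm8b (-0.01) with quantile normalization, and for Mrpl58 (-0.17), Mrps12 (-0.44), Mrps21 (-0.09), Mrps30 (-0.18), Timm23 (-0.03), Timm8b (-0.48), Tomm20 (0.05) and Tomm5 (-0.19) without both IP 1 and Input 3. With 1 library left out, 7 of the 32 named members changed sign without IP 1, 4 without Input 3, 3 without IP 2, 2 without IP 3 and 1 each without Input 1 or Input 2. Their differences ranged over those settings from -0.18 to 0.08 (Mrpl11), -0.09 to 0.51 (Mrpl12), -0.02 to 0.37 (Mrpl58), -0.30 to 0.32 (Mrps12), -0.05 to 0.79 (Mrps30), -0.17 to 0.46 (Timm17b), -0.08 to 0.36 (Timm22), -0.44 to 0.77 (Timm8b), -0.35 to 0.15 (Tomm20), -0.19 to 0.62 (Tomm5) and -0.67 to 0.39 (Tomm6). The cause was not tested. The replicate number as a block called 0 genes higher and 0 lower. Deviations of same-numbered libraries correlated at -0.0994, 0.249 and -0.167 across genes, and IP 1 and IP 3 correlated best with another number. Deviations from a mean of only 3 libraries cannot show whether same-numbered libraries came from the same mice, so pairing stays unknown. TPM keep no read depth, which limits what can be said of low genes such as Mrps31.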
